A study of Mus musculus with 6 samples.

Results

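Cholesterol synthesis, uptake and trafficking were followed through 27 genes, picked by gene symbol for their place in the pathway. All 27 were found among the 26428 genes of the deposited table, and all 27 had enough counts to be tested. They comprise 18 enzymes of the route from acetyl units to cholesterol, 4 genes that sense sterols and control the route, and 5 genes that move, release or esterify cholesterol. Expression was measured by RNA sequencing of alveolar macrophages, the resident phagocytes of the air spaces, taken from mouse lung. There are 3 libraries of each genotype: Rack1F/- is called control here, and Rack1{delta}Mye, a deletion of Rack1 in myeloid cells per the labels, knockout. Rack1 encodes a scaffold that sits on the ribosome and binds signalling enzymes. The Cre driver, the strain, the age and sex of the mice, and whether each library is from a different mouse are not stated in the labels, so p-values measure only the spread between these samples.

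Cells build cholesterol by turning acetyl-CoA into mevalonate, then isoprenoid units, then squalene, which is closed into a ring and trimmed to cholesterol. The transcription factor SREBP2, encoded by Srebf2, raises the genes of this route when sterols in the endoplasmic reticulum are low, while SCAP escorts SREBP2 to the Golgi and INSIG proteins hold that pair back when sterols are plentiful. Alveolar macrophages take up and break down pulmonary surfactant, a film of phospholipid with cholesterol, so lysosomal release and export of cholesterol are a large part of their work.

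Total counts ran from 51894849 to 66163430 units per library, at about 4 units per read pair. In CPM, the counts of a gene scaled to a common library size, control libraries held 77.3, 83.5 and 81.1 of Rack1 itself and knockout libraries 38.6, 38.2 and 34.1, lower in every knockout library (log2 fold change -1.12, edgeR adjusted p = 0.000207). Libraries were scaled by TMM, a method that sets most genes to no change, and adjusted p-values are Benjamini-Hochberg values over 14797 genes tested. Scaling to library totals instead moved the median log2 fold change of all genes from 0.01 to -0.31, and where this ends a call or turns a direction it is said beside the result. The defining alveolar macrophage genes Siglecf, Marco, Car4, Chil3 and Mrc1 were present in all 6 libraries. Of 10 such markers 2 rose, Marco 4.31-fold and Car4 5.75-fold, and 1 fell, Siglecf 1.6-fold (edgeR adjusted p = 0.000265, 7.1e-05 and 0.00558). Summed levels of 8 markers of monocytes and interstitial macrophages ran from 184.4 to 198.7 CPM in control and from 203.8 to 331.7 CPM in knockout, the highest in knockout replicate 3, and 3 of the 8 rose. Summed levels of 8 lung epithelial markers ran from 58.2 to 95.8 CPM in control and from 44.4 to 52.5 CPM in knockout, with 2 of 7 tested lower and 1 higher, and 6 neutrophil markers summed to 12.2 to 26.2 and 70.9 to 83.4 CPM. In the neutrophil sum Retnlg led, at 0, 0.243 and 11.9 CPM in control and 63.2, 51.3 and 44.1 CPM in knockout without passing the test, while of 4 tested 0 rose and 1 fell, Ly6g, which was at 0 in every knockout library. No marker of these lists was at 0 in every library, and their part in the results for cholesterol genes was not tested. Among knockout libraries, the Y-linked Eif2s3y read 16 CPM in replicate 1, 2.68 in replicate 2 and 0.681 in replicate 3, and the control libraries read 0.357 to 0.56. The X-linked Xist read 70.6, 13.8 and 13.4 CPM in control and 0.741, 10.4 and 13.1 CPM in knockout. Sex and genotype therefore cannot be told apart in full, for X-linked genes or for others.

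Setting knockout against control addresses how cholesterol genes differ in alveolar macrophages of the myeloid Rack1 knockout. By TMM the route did not shift as a block: of the 27 genes 3 rose, 3 fell and the other 21 were not called (edgeR quasi-likelihood test, adjusted p under 0.05). The mevalonate enzyme gene Mvd, the last enzyme gene Dhcr7 and the lysosomal transporter gene Npc1 rose 1.51-fold, 1.56-fold and 1.51-fold. The thiolase gene Acat2, the squalene synthase gene Fdft1 and the sterol demethylase gene Msmo1 fell 1.78-fold, 1.68-fold and 1.46-fold. Over all genes tested, 11.9% were called in either direction, 5.93% higher and 6.01% lower, against 22.2% of the 27. These are 878 genes higher and 889 lower, a split that became 290 and 933 on library totals and 130 and 606 with limma on FPKM as deposited. Members whose groups did not overlap numbered 7 higher and 7 lower of 27, where 31.2% of all genes tested had groups that did not overlap. The median log2 fold change was -0.12 over the 27 genes and 0.01 over all genes tested. By TMM, 12 of the 27 values were positive and 15 negative. On library totals the medians were -0.45 and -0.31, with 21 of the 27 negative, 0 members called higher and 2 lower. With limma on FPKM as deposited they were -0.28 and -0.11, also with 21 negative, 0 called higher and 2 lower. The 3 and 3 split is therefore given for TMM scaling. The same 6 genes were called under 5 other settings: median-of-ratios size factors, DESeq2, no expression filter, counts divided by 4 and a minimum mean level. Under these, 11.9%, 12.4%, 7.43%, 16.6% and 25.1% of all genes tested were called. The minimum mean level left 19 of the 27 members, so its 25.1% stands beside 6 of 19 and not 6 of 27. Library totals called 2 members against 8.27% of all genes, limma on FPKM as deposited 2 against 4.97%, limma on FPKM over size factors 4 against 10.1%, the same with a smaller pseudocount 1 against 6.74%, and a replicate block 5 against 9.93%. Acat2 was called under all of these, and Mvd and Dhcr7 under none of the 3 limma settings. With control replicates 1, 2 and 3 left out in turn, 2, 3 and 5 members were called against 5.31%, 6.36% and 8.17% of all genes, and with knockout replicates left out, 3, 2 and 4 against 7.36%, 6.73% and 7.51%. In bulk RNA, fewer cells of a type and less RNA per cell cannot be told apart.

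**Figure D1:**
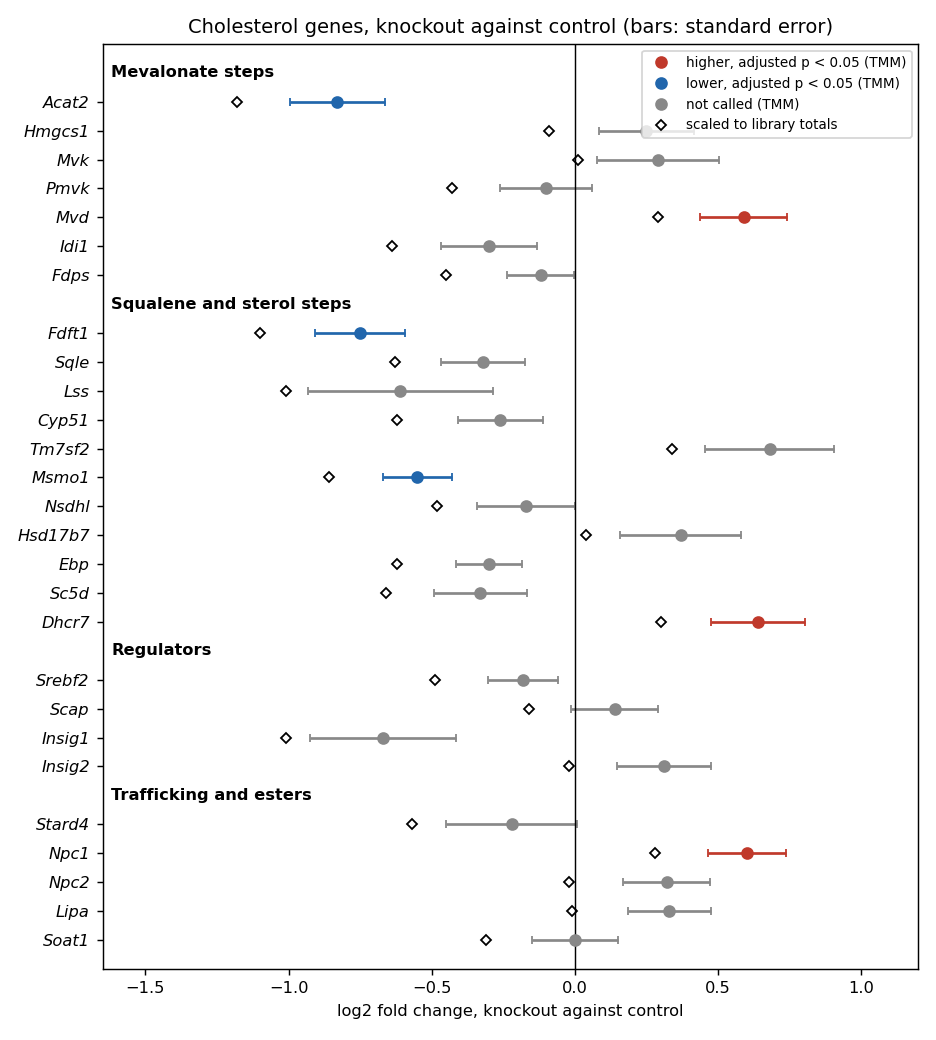
Log2 fold change of knockout against control for the 27 genes in order of their role, with filled points from TMM scaling, bars of 1 standard error, and open diamonds from scaling to library totals. Red points (Mvd, Dhcr7, Npc1) and blue points (Acat2, Fdft1, Msmo1) passed the test, and every diamond lies to the left of its point.

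Among the 7 genes of the mevalonate steps, the first and the fifth moved in opposite directions. Acat2, which encodes the cytosolic thiolase that joins 2 acetyl-CoA molecules, stood at 24.7, 22.8 and 24.1 CPM in control and at 16.4, 13.0 and 10.9 CPM in knockout. All 3 knockout libraries lay below all 3 control libraries, and the means were 23.8 ± 0.945 and 13.4 ± 2.81 CPM (SD, n = 3 per group). This gave a log2 fold change of -0.83, standard error 0.165 (edgeR quasi-likelihood adjusted p = 0.00972). Acat2 was also called on library totals, with a log2 fold change of -1.18, and with each library left out in turn, at -1.0 to -0.70. Acat2 (ENSMUSG00000023832) lies on chromosome 17 at 12942890 to 12960747, minus strand, in the GRCm38 coordinates of the deposited table. Its transcripts align to those of the neighbouring copy Acat3 over 1477 bases at 97.7% identity, so reads could be shared, and Acat3 stood at 0.567 to 1.25 CPM in control and 1.45 to 1.85 CPM in knockout. They also align to those of Tcp1, a chaperonin subunit gene, over 445 bases at 98.7% identity, and Tcp1, far above Acat2, stood at 92 to 95 CPM in control and 69.0 to 86.3 CPM in knockout, lower in every knockout library without being called (edgeR adjusted p = 0.144). How far shared reads enter the Acat2 counts was not tested.

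Mvd encodes mevalonate diphosphate decarboxylase, which makes isopentenyl diphosphate, the isoprenoid unit. It stood at 73.4, 58.1 and 69.9 CPM in control and at 116.0, 82.3 and 105.6 CPM in knockout, with no overlap between the groups and more spread within knockout than within control. The means were 67.1 ± 8.0 and 101.3 ± 17.2 CPM (SD, n = 3 per group), and a log2 fold change of 0.59 had a standard error of 0.152 (edgeR quasi-likelihood adjusted p = 0.0295). On library totals it was 0.29 and not called (adjusted p = 0.516 by edgeR). The call was also lost without control replicates 1, 2 or 3 (edgeR adjusted p = 0.0728, 0.12 and 0.0654) and without knockout replicates 1 or 3 (0.115 and 0.0885), while the log2 fold change stayed between 0.48 and 0.71 over the 6 fits with a library left out. Mvd (ENSMUSG00000006517) lies on chromosome 8 at 122433601 to 122443422, minus strand.

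The other 5 mevalonate genes were not called. Hmgcs1, which encodes the synthase that makes HMG-CoA, had a log2 fold change of 0.25 (edgeR adjusted p = 0.405) that turned to -0.09 on library totals. The mevalonate kinase gene Mvk was at 0.29 and the phosphomevalonate kinase gene Pmvk at -0.10 (edgeR adjusted p = 0.445 and 0.771), the latter spread from 33.0 to 50.8 CPM among knockout libraries. Idi1, which encodes the isomerase of isoprenoid units, was at -0.30, and Fdps, which encodes farnesyl diphosphate synthase, at -0.12 (edgeR adjusted p = 0.309 and 0.592). Counts of Fdps and Idi1 are uncertain, because near-identical copies elsewhere in the genome, such as Gm3571 for Fdps at 3.09 to 5.69 CPM and Gm13502 for Idi1 at 0.847 to 1.45 CPM, could take part of their reads.

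In the squalene and sterol steps, 8 of 11 genes had a negative log2 fold change and 3 a positive one, with 2 called lower and 1 higher, where 11.9% of all genes tested were called and 7277 of 14797 were negative. Fdft1, which encodes squalene synthase, the first enzyme committed to sterols, stood at 26.9, 27.1 and 36.7 CPM in control and at 19.8, 16.6 and 17.5 CPM in knockout. Every knockout library was below every control library, and control replicate 3 was the highest. The means were 30.2 ± 5.63 and 18.0 ± 1.65 CPM (SD, n = 3 per group), and a log2 fold change of -0.75 had a standard error of 0.158 (edgeR quasi-likelihood adjusted p = 0.0125). It was called on library totals, at -1.10, and the call was lost without knockout replicate 2 (edgeR adjusted p = 0.0588). Fdft1 (ENSMUSG00000021273) lies on chromosome 14 at 63145150 to 63179578, minus strand, and shares 774 exon bases, 18.3% of its own, with the opposite-strand cathepsin gene Ctsb. The sources used here do not say whether counting used strand, and Ctsb stood at 1948 to 2515 CPM in control and 2017 to 2708 CPM in knockout, far above Fdft1, so part of the Fdft1 counts may come from Ctsb. Ctsb itself had a log2 fold change of 0.08 (edgeR adjusted p = 0.849).

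Msmo1, which encodes the methylsterol monooxygenase that starts removal of methyl groups at carbon 4 of the ring, had groups of little spread relative to their means. It stood at 46.4, 50.0 and 48.4 CPM in control and at 33.2, 29.9 and 35.9 CPM in knockout, and the groups did not overlap. The means were 48.3 ± 1.78 and 33.0 ± 3.0 CPM (SD, n = 3 per group), with a log2 fold change of -0.55 and a standard error of 0.12 (edgeR quasi-likelihood adjusted p = 0.0148). On library totals it was -0.86 with the adjusted p just past the threshold (edgeR, 0.0539). Leaving out control replicate 1, control replicate 2 or knockout replicate 2 also ended the call (edgeR adjusted p = 0.0514, 0.0604 and 0.0606). Msmo1 (ENSMUSG00000031604) lies on chromosome 8 at 64718139 to 64733792, minus strand, and shares no annotated exon with another gene.

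Dhcr7, which encodes the reductase of 7-dehydrocholesterol at the last step of the route, rose. It stood at 15.9, 12.1 and 16.8 CPM in control and at 21.8, 26.7 and 21.3 CPM in knockout, with all knockout libraries above all control libraries and knockout replicate 2 the highest. The means were 14.9 ± 2.48 and 23.2 ± 2.98 CPM (SD, n = 3 per group), and a log2 fold change of 0.64 had a standard error of 0.165 (edgeR quasi-likelihood adjusted p = 0.0307). On library totals it was 0.30 and not called (edgeR adjusted p = 0.548). The call was kept without control replicate 3 and lost without control replicates 1 or 2 (edgeR adjusted p = 0.0904 and 0.112) or knockout replicates 1, 2 or 3 (0.0679, 0.124 and 0.0532). Dhcr7 (ENSMUSG00000058454) lies on chromosome 7 at 143823145 to 143848410, plus strand.

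**Figure D2:**
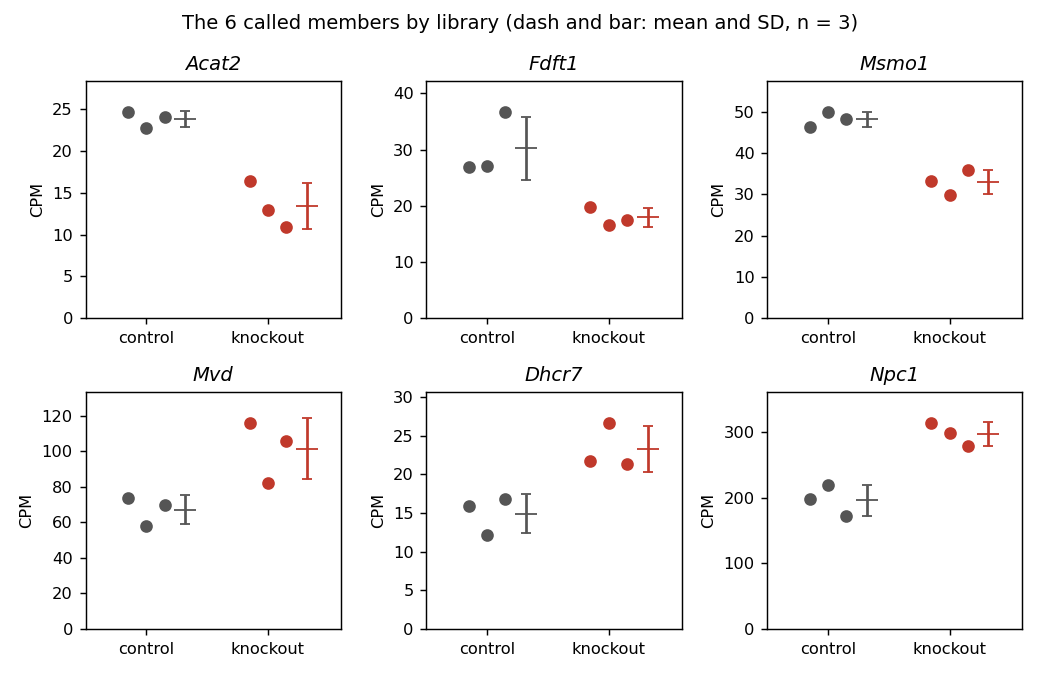
CPM of the 6 genes that passed the test, with each point a library and the dash and bar the mean and SD of 3 libraries per group, on axes that start at 0. In each panel the knockout points lie wholly below (Acat2, Fdft1, Msmo1) or wholly above (Mvd, Dhcr7, Npc1) the control points.

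The remaining sterol genes stayed short of the threshold, some with groups that did not overlap. Tm7sf2, which encodes a sterol carbon-14 reductase, stood at 2.77, 3.08 and 4.21 CPM in control and at 5.36, 5.19 and 5.60 CPM in knockout. Its log2 fold change was 0.68, the largest positive value among the 27 (edgeR adjusted p = 0.0788), and it was called without control replicate 3 (adjusted p = 0.0437). It shares 532 exon bases with Vps51 on the same strand, so its counts are uncertain; Vps51 was at -0.72 (edgeR adjusted p = 0.0689). Sqle, the squalene epoxidase gene, stood at 16, 15.6 and 17.1 CPM in control and 13.2, 11.3 and 14.5 CPM in knockout (edgeR adjusted p = 0.203). Ebp, the sterol isomerase gene, stood at 55.9, 57.6 and 50.9 CPM in control and 47.1, 44.1 and 42.7 CPM in knockout (edgeR adjusted p = 0.128). In both, the knockout libraries lay below the controls by less than the test could call. Sc5d, the sterol-C5-desaturase gene, was likewise without overlap on the low side, at -0.33, and Hsd17b7, which encodes a ketosteroid reductase of the carbon-4 complex, on the high side, at 0.37 (edgeR adjusted p = 0.239 and 0.317). Lss, the lanosterol synthase gene, overlapped, from 4.07 to 7.17 CPM in control and 2.49 to 5.53 CPM in knockout, and its log2 fold change of -0.61 ran from -1.05 without knockout replicate 1 to -0.39 without control replicate 3 and -0.40 without knockout replicate 3. Cyp51, which encodes the carbon-14 demethylase, and Nsdhl, which encodes a dehydrogenase of the carbon-4 complex, were at -0.26 and -0.17 with overlapping groups. Ebp and Nsdhl lie on the X chromosome, where the libraries also differ in sex-linked transcripts.

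Because a change of scaling moves every gene of a library by the same factor, ratios of 2 genes within a library do not depend on it. The count of Mvd over that of Msmo1 was 1.58, 1.16 and 1.44 in control and 3.50, 2.75 and 2.94 in knockout. The count of Dhcr7 over that of Msmo1 was 0.342, 0.242 and 0.348 in control and 0.657, 0.893 and 0.592 in knockout. The knockout values lay above the control values in both ratios, by 2.20-fold and 2.30-fold in the mean. These pairs were chosen after their values were seen, so the ratios are descriptions, and they show unequal change and not which gene of a pair moved.

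Promoter sequence was set beside these opposite directions. RefSeq windows of 300 bases on GRCm38.p6, reaching from 250 bases before a start site to 50 after it, were found for 22 of the 27 genes, some with several start sites, 28 windows in all. The sterol regulatory element was searched as TCACNCCAC on both strands, the CCAAT box as CCAAT and the GC box as GGGCGG, also on both strands. The sterol element occurred in 1 of the 28 windows, that of Hmgcs1, and in 1.24% of all 32851 windows of the table. CCAAT occurred in 71.4% of the member windows and 37.4% of all windows, and the GC box in 85.7% and 35.7%. All windows were counted whatever the level of their gene, and no background of genes at like levels was formed. A match is a description of letters, and other spellings of the sterol element were not searched. The 250 bases upstream of the RefSeq start are shown for Hmgcs1, the only match to the sterol element, and for Msmo1 and Mvd. Msmo1 and Mvd moved in opposite directions. Sterol element and CCAAT matches of either strand are in capitals. In the deposited table Msmo1 starts further upstream, at 64733792 on the minus strand. Much of its stretch therefore lies inside the gene as given there.
Hmgcs1, chr13:119690101-119690350, plus strand: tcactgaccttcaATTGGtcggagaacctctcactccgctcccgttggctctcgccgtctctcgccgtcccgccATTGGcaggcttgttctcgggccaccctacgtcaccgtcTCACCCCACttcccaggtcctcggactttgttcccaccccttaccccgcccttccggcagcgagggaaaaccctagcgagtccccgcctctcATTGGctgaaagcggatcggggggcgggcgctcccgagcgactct
Msmo1, chr8:64733579-64733828, minus strand: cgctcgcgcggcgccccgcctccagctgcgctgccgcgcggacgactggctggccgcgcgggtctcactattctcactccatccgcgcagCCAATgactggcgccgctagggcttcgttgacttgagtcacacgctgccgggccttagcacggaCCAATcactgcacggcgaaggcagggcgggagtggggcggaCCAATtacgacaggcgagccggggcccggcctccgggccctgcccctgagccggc
Mvd, chr8:122443423-122443672, minus strand: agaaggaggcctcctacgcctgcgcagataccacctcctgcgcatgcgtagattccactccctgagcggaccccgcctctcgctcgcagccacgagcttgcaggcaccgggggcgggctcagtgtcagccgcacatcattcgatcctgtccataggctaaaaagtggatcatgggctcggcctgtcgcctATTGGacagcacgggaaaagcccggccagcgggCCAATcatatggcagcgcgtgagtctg
The Hmgcs1 stretch holds 1 match to the sterol element and 3 to CCAAT, the Msmo1 stretch 3 to CCAAT and the Mvd stretch 2. Msmo1, which fell, and Mvd, which rose, thus both carry CCAAT and lack this spelling of the sterol element. This pair does not stand for all called genes. The window of Acat2, which fell, held 0 matches to CCAAT, and those of Dhcr7, which rose, held 0, 0 and 2. Fdft1 and Npc1 had no window.

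None of the 4 regulators passed the test in either direction, and 1 of the 4 had an unadjusted p under 0.05 (0 calls with DESeq2 also). Srebf2, the gene of the transcription factor SREBP2, stood at 42.6, 45.1 and 38.7 CPM in control and at 36.3, 34.8 and 40.2 CPM in knockout, with overlap (log2 fold change -0.18, edgeR adjusted p = 0.396). Scap was at 0.14 (edgeR adjusted p = 0.626) and turned to -0.16 on library totals. Insig1, itself raised by SREBP2 in many cells, stood at 5.56, 3.94 and 4.27 CPM in control and at 3.35, 3.09 and 2.19 CPM in knockout. The groups did not overlap, but the log2 fold change of -0.67 had a standard error of 0.254 and was not called (edgeR adjusted p = 0.121). Limma on FPKM as deposited did call it (adjusted p = 0.0316). Insig2, which encodes the second INSIG protein, stood at 6.81, 7.93 and 6.53 CPM in control and at 9.50, 8.84 and 8.06 CPM in knockout. It too did not overlap and was not called (log2 fold change 0.31, edgeR adjusted p = 0.272), and on library totals it turned to -0.02. Within libraries, the count of Insig2 over that of Insig1 was 1.22, 2.01 and 1.53 in control and 2.83, 2.86 and 3.67 in knockout, higher in all 3 knockout libraries, on 128 to 366 units of Insig1 per library. This ratio was also chosen after its values were seen.

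Of the 5 trafficking genes, 1 was called higher and 0 lower, against 11.9% of all genes called. By TMM the log2 fold changes of Npc1, Lipa and Npc2 were positive, that of Soat1 was 0.00 and that of Stard4 negative, while on library totals the value of Npc1 stayed positive and the other 4 were negative. The called gene was Npc1, whose product carries cholesterol out through the lysosomal membrane and whose loss causes Niemann-Pick type C disease. It stood at 198.4, 218.5 and 171.4 CPM in control and at 314.0, 297.6 and 278.6 CPM in knockout, with every knockout library above every control library. The means were 196.1 ± 23.6 and 296.7 ± 17.7 CPM (SD, n = 3 per group), and a log2 fold change of 0.60 had a standard error of 0.136 (edgeR quasi-likelihood adjusted p = 0.0174). On library totals it was 0.28 and not called (edgeR adjusted p = 0.39). The call was lost without control replicates 1 or 3 (edgeR adjusted p = 0.0729 and 0.0537) or knockout replicates 1 or 2 (0.0614 and 0.0543), with log2 fold changes of 0.51 to 0.68 over the 6 fits. Npc1 (ENSMUSG00000024413) lies on chromosome 18 at 12189692 to 12236400, minus strand, and 4.5% of its exon bases overlap Rmc1 on the other strand, which stood at 15.3 to 29.9 CPM over the 6 libraries.

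The partners of Npc1 in the lysosome were the most abundant of the 27 genes. Lipa, the lysosomal acid lipase gene whose product frees cholesterol from its esters, stood at 411.2, 344.8 and 421.7 CPM in control and at 543.3, 483.5 and 450.1 CPM in knockout. Its groups did not overlap, yet the log2 fold change of 0.33 was not called (edgeR adjusted p = 0.189), and on library totals it was -0.01. Npc2, which encodes the soluble protein that hands cholesterol to NPC1, stood at 337.0, 286.8 and 290.0 CPM in control and at 434.0, 385.5 and 317.7 CPM in knockout, with overlap. Its log2 fold change was 0.32 (edgeR adjusted p = 0.227), and -0.02 on library totals. Soat1, which encodes the enzyme that esterifies cholesterol for storage, was the member closest to no change by TMM, at 73.1 ± 11.4 CPM in control and 73.3 ± 10.6 CPM in knockout (SD, n = 3 per group), and had a log2 fold change of -0.31 on library totals. Stard4, which encodes a soluble sterol carrier, was low, from 3.27 to 4.80 CPM over the 6 libraries, with a log2 fold change of -0.22 (edgeR adjusted p = 0.613).

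**Figure D3:**
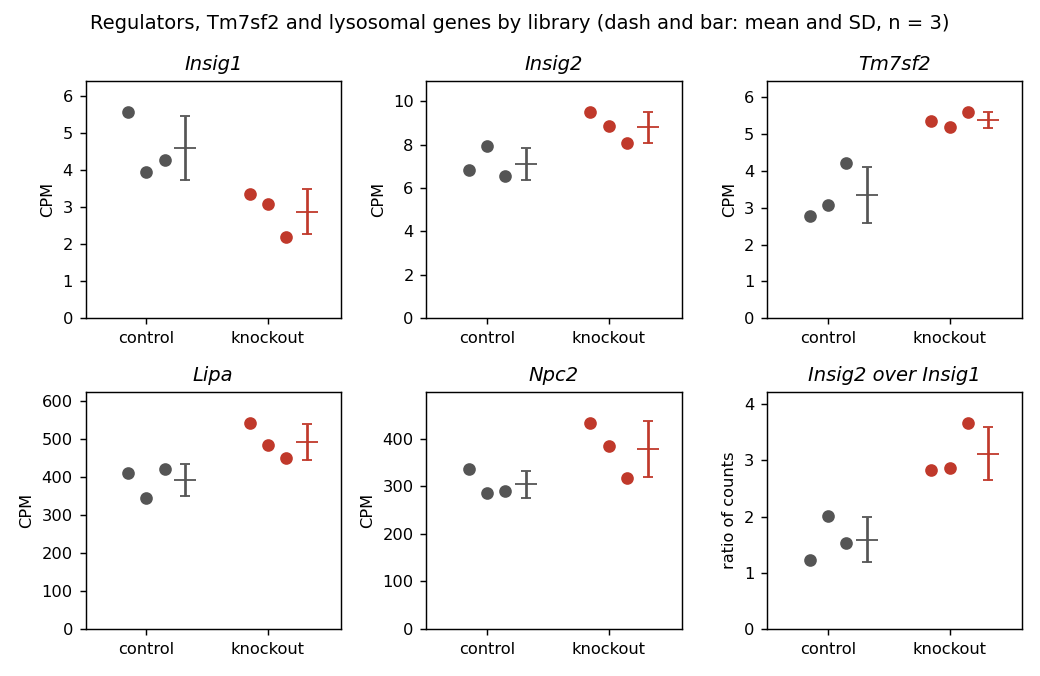
CPM of 5 genes that did not pass the test and, in the last panel, the ratio of Insig2 to Insig1 counts, with each point a library and the dash and bar the mean and SD of 3 libraries per group. Knockout and control points are apart in every panel but that of Npc2, where knockout replicate 3 at 317.7 CPM lies below control replicate 1 at 337.0 CPM.

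Summed by role, the 5 trafficking genes stood at 1015, 923.4 and 973.7 CPM in control and at 1360, 1241 and 1135 CPM in knockout, and the 11 sterol genes at 214.8, 220.5 and 237.4 CPM in control and at 194.0, 178.9 and 183.9 CPM in knockout. The knockout libraries were thus all higher in the first sum and all lower in the second, with TMM scaling. These sums were not formed on library totals. On that scaling the log2 fold changes of Lipa, Npc2 and Npc1 were -0.01, -0.02 and 0.28, and no call was made. The rise of the first sum is therefore given for TMM scaling only. The 7 mevalonate genes overlapped, at 222.9 to 241.4 CPM in control and 215.7 to 283.7 CPM in knockout. Sums are led by the most abundant genes, Lipa, Npc2 and Npc1 in the first and Ebp and Msmo1 in the second. Knockout replicate 2 was below the control mean in 17 of 27 genes, and knockout replicates 1 and 3 in 14 each, while control replicates 1, 2 and 3 were below it in 14, 16 and 9, so this count does not set the genotypes apart.

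**Figure D4:**
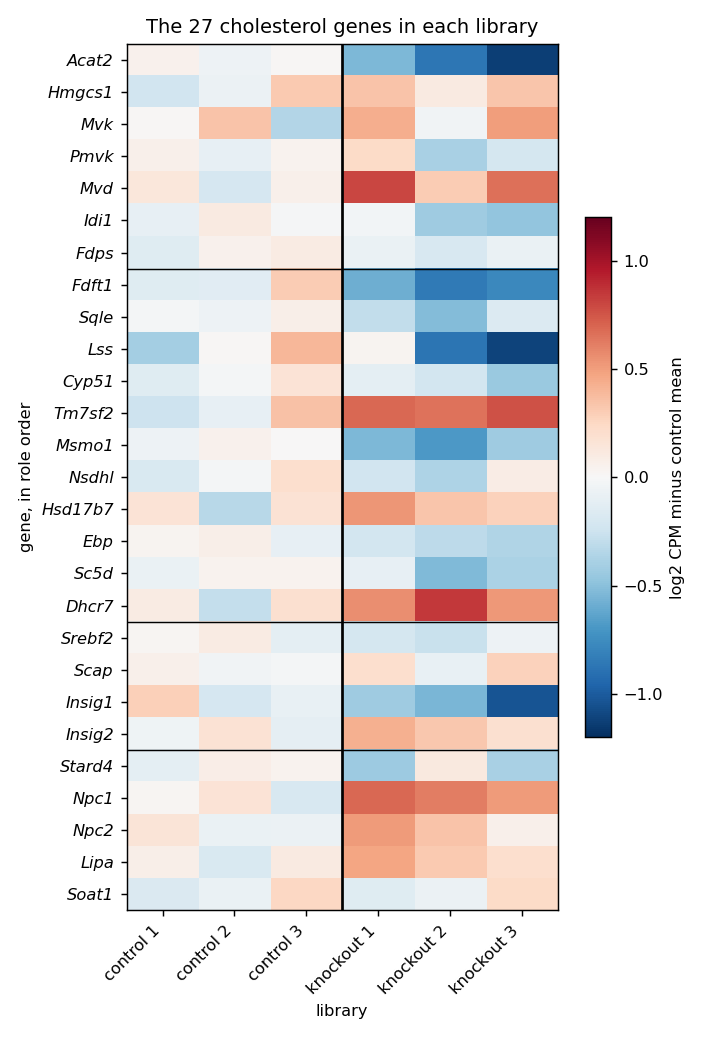
Heat map of log2 CPM minus the control mean for the 27 genes (vertical, in role order with lines between roles) in the 6 libraries (horizontal, with a line between groups), red above and blue below the control mean. Acat2, Fdft1 and Msmo1 are blue and Mvd, Tm7sf2, Dhcr7 and Npc1 red in all 3 knockout libraries, while Lss is at 0.03, -0.88 and -1.11 in knockout replicates 1, 2 and 3.

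Levels between genes were compared per length, as FPKM (fragments scaled by gene length and library size) divided by size factors, in control libraries. Lipa and Npc2 were highest, at 54.3 ± 5.83 and 52.5 ± 4.85 FPKM (SD, n = 3), and did not differ beyond their spread. Mvd followed at 33.9 ± 4.06 FPKM, then Pmvk at 23.7 ± 1.37, Ebp at 22.2 ± 1.39, Npc1 at 16.3 ± 1.94 and Fdps at 13.9 ± 1.25 FPKM. Within the route, levels ranged widely, down to Lss at 0.481 ± 0.137 FPKM and Tm7sf2 at 0.699 ± 0.166 FPKM, the lowest of the 27. Acat2, Msmo1, Soat1 and Fdft1 lay close together, at 8.79, 7.37, 7.00 and 6.89 FPKM. Srebf2 stood at 5.50 ± 0.411 FPKM, and Insig2 and Insig1 at 1.90 ± 0.196 and 1.39 ± 0.259 FPKM.

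Further genes of the pathway were read from lists chosen by role. Of 12 other sterol and isoprenoid enzyme genes tested, 0 rose and 3 fell (edgeR, with 4 at an unadjusted p under 0.05), which is 25.0% called against 11.9% of all genes and 6.01% lower. Acat1, which encodes the mitochondrial thiolase related to that of Acat2, fell 1.80-fold, with means of 50.1 ± 5.04 CPM in control and 27.9 ± 2.33 in knockout (SD, n = 3 per group; edgeR adjusted p = 0.00251), and held its call on library totals. Por, which encodes the reductase that feeds electrons to Cyp51 and Sqle proteins, fell 1.49-fold (edgeR adjusted p = 0.0396), a call lost on library totals (0.0544) and in each fit with a library left out except that without control replicate 1, at edgeR adjusted p = 0.0754 to 0.151.

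Of 20 other uptake, transport and ester genes tested, 2 rose and 1 fell, 15% of them and so near the 11.9% of all genes. Ch25h, which encodes the cholesterol 25-hydroxylase of macrophages, whose product holds SREBP2 back through INSIG, stood at 42.4, 53.4 and 44.9 CPM in control and at 106.8, 101.4 and 75.1 CPM in knockout. Every knockout library lay above every control library (log2 fold change 1.01, edgeR adjusted p = 0.00264), but on library totals the log2 fold change of 0.65 was not called (0.0872). Cyp27a1, which encodes the sterol 27-hydroxylase, rose, with means of 0.911 ± 0.0925 CPM in control and 2.51 ± 0.836 in knockout (SD, n = 3 per group; edgeR adjusted p = 0.0239), a call lost without control replicates 1, 2 or 3 (edgeR adjusted p = 0.0695, 0.0661 and 0.0672) or knockout replicate 3 (0.102) and on library totals (0.102). Scarb1, which encodes the high-density lipoprotein receptor SR-BI, fell, with means of 87.8 ± 8.66 CPM in control and 50.3 ± 5.08 in knockout (SD, n = 3 per group; edgeR adjusted p = 0.0032). Its call held on library totals and with each library left out, and was lost by limma on FPKM as deposited (adjusted p = 0.0613).

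Of 11 other regulators of SREBP tested, 0 rose and 0 fell (edgeR, with 0 at an unadjusted p under 0.05), and their median log2 fold change by TMM was 0.13. Of 14 fatty acid synthesis genes that SREBP proteins also raise, 0 rose and 1 fell, 7.1% against 11.9% of all genes, with a median log2 fold change of 0.05. The gene that fell was Pnpla3, which encodes a lipid droplet acyltransferase and lipase, at 0.844, 1.17 and 1.71 CPM in control and 0.152, 0.362 and 0.316 CPM in knockout (edgeR adjusted p = 0.0306). Its call was lost with each library left out in turn, at edgeR adjusted p = 0.0552 to 0.125.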

How the data were processed

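Per the labels' protocols, TRIzol was used for extraction and NEBNext Ultra chemistry for the libraries. GRCm38, HISAT2, StringTie, edgeR and DESeq2 are among the names in the submitters' processing notes, which give no versions or roles. The deposited table gives each gene an expected count (estimated, whole as deposited) and an FPKM value in each library, both made by the authors per the file headers. In all 6 libraries 4 was the most frequent expected count above 0, so a read pair was taken as about 4 units.

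Expected counts were filtered with edgeR's default expression filter, scaled by TMM and tested with edgeR's quasi-likelihood test, without covariates. Fold changes in words are ratios of mean CPM. Alternatives were limma on log2(FPKM + 1), which understates changes of low genes, other scalings and filters, DESeq2, a block for the replicate number, and fits with a library left out. The members and lists were chosen with earlier results of these data known. All 27 members are reported, and of the other lists up to 3 called genes, except 1 that is not reported here. In a simulation over 14797 genes, 54 of 100 genes changed 2-fold and 78 of 100 changed 4-fold were called, and 12 of 144 calls were false. Near-identical copies were alignments of at least 300 bases at 95% identity. Software was Python 3.11.15, blastn 2.17.0, R 4.3.3, DESeq2 1.42.0, limma 3.58.1 and edgeR 4.0.16.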

Additional observations from a re-analysis of the deposited data

How the results depend on the processing

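The counts of members called were 3 higher and 3 lower, and the same 6 genes were called with median-of-ratios size factors, DESeq2, no filter, counts divided by 4 and a minimum mean of 10 CPM, which left 19 members. Higher members numbered 0 on library totals, 0 with limma on FPKM as deposited, 1 with limma on FPKM over size factors and 0 with a pseudocount of 0.1, where 1 was lower. With libraries left out in turn, higher members ran from 0 to 2 and lower ones from 1 to 3, and Acat2 was called in all 6 fits. The members' median log2 fold change of -0.12 became -0.45 on library totals and -0.28 with limma on FPKM as deposited, and ran from -0.18 to -0.07 with a library left out. Over all genes, 878 higher and 889 lower became 290 higher on library totals, 130 higher with limma on FPKM as deposited, and 538 and 459 with a pseudocount of 0.1. With a library left out, 455 to 691 genes were higher and 372 to 565 lower. Calls were 49.7% higher with TMM, 23.7% on library totals and 17.7% with limma on FPKM as deposited. Log2 fold changes that turned sign, none of a called gene, were on library totals Hmgcs1 -0.09, Scap -0.16, Insig2 -0.02, Npc2 -0.02, Lipa -0.01 and Soat1 -0.31 (from 0.00), with limma on FPKM as deposited Hmgcs1 -0.05, Mvk -0.01, Scap -0.10, Insig2 -0.01, Npc2 -0.02 and Soat1 -0.28, and without knockout replicate 2 Pmvk 0.02, which ran from -0.30 to 0.02 with a library left out. Soat1, at 0.00 by TMM, ran from -0.12 to 0.14 with a library left out. The cause of the differences between tools was not tested. Same-numbered libraries deviated together by correlations of -0.0398 to 0.0276, so the numbers were not taken as pairs; with a replicate block 2 members were higher and 3 lower, and Dhcr7 lost its call (edgeR adjusted p = 0.0646), as did Cyp27a1 of the other lists (0.054). The changes of the 6 called members were under 2-fold. In the simulation 54 of 100 changes of 2-fold were recovered, and no smaller change was simulated, so recovery at the members' size is not known. Its libraries were built from the real totals, so it did not try the choice between TMM and library totals.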
